A study of Mus musculus with 7 samples.

Results

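Antisense and divergent non-coding clusters are read from the strand opposite a protein-coding gene, either inside or across its span or starting next to it. They were taken from the authors' deposited table of transcript clusters, a transcript cluster being the set of array probes that are read together as a transcript. A member is a row of the table's class NonCoding that has a position, spans over 200 bp and overlaps no row of the classes Coding or Complex on its own strand, but overlaps such a row on the opposite strand or lies within 5 kb of it. The rule gave 226 members out of 3192 non-coding rows and 7580 rows in all. For each member the nearest coding row on the opposite strand was taken as its partner, which gave 214 partners and 226 pairs. The table's own annotation carried a NONCODE entry of the kind Antisense for 98 members and of the kind Linc for 104, and 130 members had no gene symbol. In the reference annotation 12 members overlap a protein-coding gene on their own strand, so these may not be antisense non-coding RNA.

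The study asked what loss of the DNA-binding protein CTCF does to male germ cells. RNA of seminiferous tubules, prepared after removal of the tunica albuginea and labelled as testes in the sample titles, was hybridised to Affymetrix mouse transcriptome arrays (MTA 1.0), with a separate array for each adult mouse. The 4 *Ctcf*-cKO mice carried the *Stra8-iCre* transgene with a floxed *Ctcf* allele over a deleted allele (*f/Δ*), and the 3 mice called wild-type were littermates that kept *Ctcf* in the states *f/f*, *wt/f* or *wt/wt*, all on the background that the methods write as C56BL/6J. Cre from this transgene is made only in germ cells of the testis, from the spermatogonia up to the onset of meiosis, so Sertoli cells, Leydig cells and the other somatic cells of the testis keep CTCF, and the study also describes CTCF in spermatogonia of the *Ctcf*-cKO mice.

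Mammalian promoters often start transcription in both directions, and the upstream RNA is usually non-coding and less stable than the mRNA. Other non-coding RNAs start inside a gene or at its far end and run against it. The testis, above all its meiotic and post-meiotic germ cells, transcribes an unusually large share of the genome and is a rich source of such RNAs. Pairs that share a promoter region often differ between cell types together, whereas an RNA nested in a long gene can have a promoter and a cell type of its own.

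All values are the authors' averages of log2 signal per genotype, and a difference is the *Ctcf*-cKO average minus the wild-type average. The table was filtered by its authors at a linear fold of 2 and, before adjustment, at a p of 0.05. Every member and every partner had therefore passed that filter before it was counted here, and genes that did not pass it cannot be described. *Ctcf* itself and its paralog *Ctcfl* have 0 rows. The table holds 0 columns of single arrays, so no spread between mice could be computed, no genotype difference was tested, and precision is set by how many arrays there were.

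Of the 226 members, 192 (85.0%) were lower in *Ctcf*-cKO than in wild-type, where 64.9% of all 7580 rows were lower. Among other non-coding clusters the share was 79.3% in the 2073 with no coding row overlapping on their own strand and none within 5 kb on the opposite strand, 85.9% where the nearest opposite-strand coding row lay over 5 and up to 50 kb away, 59.1% in those within 5 kb of a coding row on the same strand without overlap, and 21.5% in the 522 that overlap a coding row on their own strand. The other 34 members were higher, against 35.1% of all rows. The lower members had a median wild-type average of 7.91, a median *Ctcf*-cKO average of 6.46 and a median difference of -1.31, the same as that of all lower rows (-1.31). Among the higher members the median wild-type average was 6.13, the median *Ctcf*-cKO average 7.43 and the median difference 1.19, beside 1.30 for all higher rows. A linear fold of 3 was passed by 38 lower members (16.8%, against 12.5% of all rows and 18% of the 2073 clusters) and by 6 higher members (2.65%, against 8.4% and 3.71%). Differences ran from -2.38 to 2.37. These shares stand side by side and the differences between them were not tested.

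The split between lower and higher members depends on where the zero of the scale is put. The median difference over all 7580 rows was -1.15, and when it was subtracted from every row, 148 members (65.5%) were lower and 78 higher, in place of 192 and 34. By construction, about as many of all rows are lower as higher on that scale. No row differs by less than 1.00 in size, so the new sign only divides the lower rows at about -1.15, and every higher row stays higher. Any difference given here between -1.14 and 0 becomes positive on that scale. Since the rows had been selected for their fold, this median is not that of the whole array.

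The spans of members ran from 260 to 222504 bp with a median of 5217 bp, beside medians of 5873 bp for all rows and 18383 bp for coding rows, and a median of 30 probes stood behind each value. In 10 members, 4 of them higher, both averages were under 6 on the log2 scale. On the X chromosome lay 4 members (1.77%, against 7.44% of all rows and 2.99% of the 2073 other non-coding clusters) and on the Y chromosome 1 member (0.442%, against 5.26% and 1.35%).

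Within pairs, member and partner moved the same way in 186 of 226 (82.3%), with 160 pairs in which both were lower and 26 in which both were higher. In 32 pairs the member was lower and the partner higher, and in 8 pairs the member was higher and the partner lower. Of the 168 pairs with a lower partner, 160 (95.2%) had a lower member, whereas of the 58 pairs with a higher partner 26 (44.8%) had a higher member and 32 (55.2%) a lower member, beside 85.0% lower among all members. With the median of all rows subtracted, 60.2% of the 226 pairs moved the same way.

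Beyond 5 kb the share was lower than the 82.3% of the 226 pairs, a comparison that was not tested. Within 5 kb the share is mixed with the arrangement of the pairs, so a trend with distance alone cannot be read from it. The 140 pairs whose spans overlap had 77.1%. Among the divergent pairs described below it was 94.2% with 5′ ends at most 1 kb apart and 96.0% with 5′ ends farther apart. Where the nearest opposite-strand coding row lay over 5 and up to 50 kb away, 108 of 163 non-coding clusters (66.3%) went the way of that row, and between 50 and 500 kb it was 439 of 820 (53.5%). On the same strand, without overlap and within 5 kb, 84 of 88 non-coding clusters (95.5%) moved like the coding row. The 3 members with the widest gap were *Gm12898*, 4956 bp from *4930538K18Rik* (-1.15 and -1.08), a cluster 4694 bp from *Tshz2* (1.58 and 1.77) and a cluster 4663 bp from *Pifo* (-1.12 and -1.65), each moving with its partner. Just outside the limit were a cluster 5020 bp from *Kit* (-1.83, while *Kit* had 2.28), *1700026D11Rik* 5024 bp from *Gpcpd1* (-1.59 and 1.05) and a cluster 5227 bp from *Cd55* (-1.93 and -1.26). At the limit on span, the shortest members, of 260 and 265 bp, lay by *Wt1* (1.25) and inside *Gm13306* (-1.63), and the longest clusters left out, of 177 and 145 bp, lay by *Mif* (-1.65) and *Mroh4* (-1.26).

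Of the 6 arrangements of a pair, the highest share moving together was that of divergent pairs, whose spans do not overlap and whose 5′ ends are next to each other. There were 77 such pairs, of which 67 were lower together, 6 higher together and 4 opposite, so that 94.8% moved the same way. In 52 of them the 5′ ends lay at most 1 kb apart, from 6 to 951 bp with a median of 102 bp, and 49 of these 52 (94.2%) moved the same way. The share moving together depends on how many members and how many partners were lower. Among the 77 divergent pairs 90.9% of members and 68 partners were lower. Among the 75 embedded pairs, described below, it was 77.3% of members and 44 partners. The shares of the arrangements were not tested against each other. With the median of all rows subtracted, 57 of the 77 divergent members were lower and 76.6% of the pairs moved the same way, and the share for the 52 close pairs was 78.8%. In the 46 close pairs that were lower together, the median difference was -1.31 for members and -1.31 for partners. The member had the larger difference in 22 of them, the partner in 23, and in 1 they were equal. The size of the member's difference was only weakly related to that of its partner (Pearson's r = 0.28, Spearman's rho = 0.24 across the 46 pairs, all from the same arrays and all cut off near -1 by the table's filter).

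Among close divergent pairs the largest difference belonged to an unnamed cluster at chr11:103505282-103506957 (mm10, as for every position here) on the plus strand, 684 bp from *Lrrc37a*. It had a wild-type average of 7.34 and a *Ctcf*-cKO average of 5.09, a difference of -2.25, while *Lrrc37a* went from 9.51 to 8.02. The cluster upstream of *Zfand4* (chr6:116260434-116264095, minus strand) averaged 8.37 and 6.49, and *Zfand4* 10.33 and 8.97. In both pairs the difference was larger on the non-coding side than on the coding side. The same held for the cluster paired with *Prdx6b*, a member of the peroxiredoxin family, which averaged 7.23 in wild-type tubules and 5.38 in those of *Ctcf*-cKO mice beside 9.99 and 8.47 for the gene. *Morc2b* had a partner cluster at 7.91 and 6.27, a difference of -1.64 against -1.31 for the gene itself. *4930558J18Rik*, 68 bp from *1700066M21Rik*, had averages of 8.13 and 6.53, a difference of -1.60 against -1.20. For *Aqp9*, which encodes a channel for water and glycerol, the cluster averaged 7.37 and 5.78 and the gene 8.53 and 7.09. Of the 8 close divergent pairs with the largest member difference, to which the pair of *Acr* also belongs, that of *Ccdc178* had the larger difference on the coding side, -1.88 against -1.60. Because these 8 were picked by the size of the member's difference, a larger non-coding side is expected from the choice alone, and over the 46 pairs above it was about as frequent on either side.

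The divergent partners given next were in a germ-cell gene list or marker set, except *Cep83*, whose member was named by its symbol. *Acr* encodes acrosin, the protease of the acrosome, and the cluster 53 bp upstream of it (chr15:89566967-89568272, minus strand) averaged 8.95 in wild-type tubules and 7.29 in those of *Ctcf*-cKO mice. *Acr* itself averaged 10.77 and 9.71, so the upstream cluster had the larger difference, -1.66 against -1.06. *Acrv1* encodes another acrosomal protein, and its neighbour *1700027I24Rik*, 30 bp away, averaged 6.41 and 4.98 beside 9.81 and 8.63 for the gene. *Dnah10*, a heavy chain of the axonemal dynein, starts 6 bp from the 5′ end of *4930404A12Rik*, the closest of all divergent 5′ ends. Here the coding side had the larger difference, from 8.73 to 7.16 (-1.57), and the non-coding side went from 8.17 to 7.09 (-1.08). *Pld6*, needed for piRNA production at mitochondria, and the cluster opposite it both had a difference of -1.22, with averages of 9.15 and 7.93 for the gene and 6.95 and 5.73 for the cluster. *Cep83os* averaged 9.05 and 7.77 beside 10.39 and 9.36 for *Cep83*, which encodes a protein of the centriole's distal appendages.

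Other close divergent partners that were lower together with their non-coding neighbour were chosen for naming after their values had been seen. *Ccna1*, the germ-cell cyclin A, had -1.70 and its neighbour *4931419H13Rik* -1.19. *Clgn* encodes calmegin, a chaperone of the spermatid endoplasmic reticulum, and had -1.08 beside -1.22 for the cluster upstream. The acrosomal gene *Spaca3* had -1.08 and *4930507D10Rik* -1.13. *Actrt1*, an actin-related gene on the X chromosome, had -1.75 and *4930515L19Rik* -1.51. *Spag5*, which encodes a protein of the mitotic spindle, had -1.26 and *Gm3948* -1.32. The pairs of *Pdcl2* (-1.33 with -1.20 for *4930432L08Rik*), *Tmem247* (-1.57 with -1.52) and *Zdhhc19* (-1.18 with -1.37) were alike in this respect. Of the 25 divergent pairs with 5′ ends over 1 kb apart, 21 were lower together, 3 higher together and 1 opposite. The largest difference there was that of *Gm25386*, which lies 3625 bp from *1700028J19Rik* and went from 8.09 to 5.86 (-2.23), while its partner went from 10.58 to 9.40 (-1.18). The reference annotation places a protein-coding gene, *Gm36864*, over *Gm25386* on its own strand.

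Only 3 close divergent pairs moved in opposite ways, and they were named after their values had been seen. *4933421A08Rik* averaged 7.25 in wild-type tubules and 6.22 in those of *Ctcf*-cKO mice, while *Mfsd2a*, a lipid transporter 120 bp away, went from 7.18 to 8.93. *Cpxm1* went from 7.57 to 8.78, and the cluster 202 bp from it went from 6.72 to 5.57. In the remaining pair the member *Gm12750* was the higher side, at 6.37 and 7.42, and *Ttc39a* the lower, at 9.30 and 8.09. In 3 others both sides were higher. *4632427E13Rik* averaged 7.88 and 9.10 beside 6.52 and 7.78 for *Rab30*, a small GTPase of the Golgi, *Gm14858* had 1.10 beside 1.09 for *Cited1*, and the cluster upstream of *Prep*, a prolyl endopeptidase, had 1.07 beside 1.65.

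Promoter sequence was available from RefSeq (GRCm38.p6) for 42 of the 52 partners of close divergent pairs (80.8%), 37 by symbol and 5 by an older symbol or by position, as windows of 300 bases from 250 before the start. The array's 5′ end lay within 50 bp of the RefSeq start in 32 of the 42. It lay 5393 bp away for *Aqp9* and 9024 bp away for *Ttc39a*, so for these genes the window is not the region between the facing 5′ ends, and by the RefSeq start they would not count as close divergent partners. CpG dinucleotides numbered a median of 13 per window, from 0 to 46. The median was also 13 in 17492 promoters of protein-coding genes, and 7 in 27025 promoters of all genes, with 1 promoter for each gene. There the promoter with the lowest coordinate was taken, whereas a partner's window was the one nearest to its 5′ end on the array. The sets were thus picked by unlike rules. A Myb site (CAACTG, the variant CAACGG, the variant TAACTG or the variant TAACGG, on either strand) was found in 20 of the 42 windows (47.6%), in 26.4% of the protein-coding promoters and in 28.2% of these 27025 promoters. The TATA box, TATAAA, was in 8 windows (19%), against 13.3% and 14.1%. The cAMP-responsive element TGACGTCA was in 1 window (2.38%, against 2.22% and 1.78%) and its shorter form TGACGT, which every full element also contains, in 2 (4.76%, against 8.52% and 7.44%). The letters GGNGGCAG from the CTCF motif were in 2 windows (4.76%, against 13% and 12.3%), and the CTCF core was in 0 windows, in 0.04% of protein-coding promoters and in 0.0296% of all promoters. A match describes letters only, and these shares were not tested against each other.

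The stretches between the facing 5′ ends show how different these short shared upstream regions are. They are given for 4 pairs of which both sides were lower in *Ctcf*-cKO, in the build GRCm38.p6, on the plus strand, which is that of the coding gene, with each CpG in capitals. The stretch of *Zfand4* is chr6:116264096-116264218, that of *1700066M21Rik* chr1:57377552-57377619, that of *Cep83* chr10:94688620-94688789 and that of *Acrv1* chr9:36693190-36693219. The stretch of *Zfand4* ends at the RefSeq start, 3 bp short of the gene's 5′ end on the array. They hold 16, 11, 27 and 0 CpG. Their GC content was 70.7%, 75%, 79.4% and 33.3%. The full cAMP-responsive element and a Myb site read on the minus strand lie between *1700066M21Rik* and *4930558J18Rik*, and none of the motifs searched lies in the other stretches.
Zfand4: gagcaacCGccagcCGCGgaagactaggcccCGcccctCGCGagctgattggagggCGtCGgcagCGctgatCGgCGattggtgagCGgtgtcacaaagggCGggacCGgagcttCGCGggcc
1700066M21Rik: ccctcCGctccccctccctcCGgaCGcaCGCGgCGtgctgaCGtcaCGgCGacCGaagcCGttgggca
Cep83: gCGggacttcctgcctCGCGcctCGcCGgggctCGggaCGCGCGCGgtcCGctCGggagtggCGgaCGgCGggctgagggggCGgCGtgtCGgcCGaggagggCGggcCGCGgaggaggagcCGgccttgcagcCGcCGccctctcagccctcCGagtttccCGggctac
Acrv1: atagattgtttctcaagttctagaattccc

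In the head-to-head arrangement the 5′ parts of both spans overlap. It held 31 pairs, of which 30 had a lower member, and 27 (87.1%) moved the same way. In 17 of them the 5′ ends lay at most 1 kb apart, and 13 of these 17 (76.5%) moved the same way, beside 82.3% of all 226 pairs. The cluster at chr1:156303489-156304959 overlaps the first 176 bp of *Tdrd5*, a component of the piRNA granules of germ cells. It averaged 9.55 in wild-type tubules and 7.77 in those of *Ctcf*-cKO mice, a difference of -1.78, and *Tdrd5* averaged 9.63 and 8.28. *9530080O11Rik* overlaps *Hook1*, a gene of spermatid head and manchette formation, by 416 bp and averaged 8.03 and 6.73 beside 11.14 in wild-type and a difference of -1.14 for the gene. The 4 opposite pairs of this class were all of the kind with a lower member and a higher partner, and all had 5′ ends at most 1 kb apart. They were *4932412D23Rik* with the transcription factor gene *Zbtb20* (-1.42 and 1.20), *4930581F22Rik* with *St3gal4* (-1.13 and 1.72), *1700001G11Rik* with *Trim35* (-1.03 and 1.16) and a cluster with *Fryl* (-1.46 and 1.29), named after their values had been seen except for the *St3gal4* pair. The only higher member was opposite *Cdh5*, the endothelial cadherin, and averaged 4.80 and 6.11 while *Cdh5* averaged 7.21 and 8.34. With the median of all rows subtracted, 16 of the 31 members were lower and 45.2% of the pairs moved the same way.

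Members that lie wholly inside the span of the coding gene, numbered 75. Of these pairs 40 were lower together, 13 higher together, 18 had a lower member in a higher gene and 4 a higher member in a lower gene, so that 70.7% agreed in direction. Where the 5′ ends were up to 20 kb apart, 19 of 23 pairs (82.6%) agreed, and beyond that 34 of 52 (65.4%). After the median of all rows was subtracted, 47 of the 75 embedded members were lower and 58.7% of the pairs moved the same way. Of all 58 pairs with a higher partner, 31 were embedded.

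The cluster with the largest negative difference of all members lies in *Etv6*, a gene for a transcriptional repressor of the ETS family, at chr6:134245671-134246366 on the minus strand. It averaged 8.73 in wild-type tubules and 6.35 in those of *Ctcf*-cKO mice, and a second member in *Etv6*, 2184 bp long and next to it, averaged 9.40 and 7.71. *Etv6* itself was higher, at 6.84 and 7.96. *Gm2366* in *Fat1*, which encodes a large cadherin, formed the opposite pair with the widest gap, 3.83 between the differences, with averages of 8.44 and 6.58 for *Gm2366* and of 8.28 and 10.25 for *Fat1*. Inside *Gnai1*, a gene for a G protein subunit, a cluster went from 7.91 to 6.20 while the gene went from 7.31 to 8.81. *Dync1i1*, an intermediate chain of cytoplasmic dynein, held *1700019G24Rik* (8.68 and 6.89) and a further lower cluster (7.26 and 5.86), and was itself at 7.31 and 8.61. A cluster of 364 bp in *Gm3776* averaged 7.11 and 5.81 against 7.86 and 9.88 for *Gm3776*, and a convergent cluster near the same gene had exactly the same averages, so these may not be separate measurements.

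The reverse was seen inside *Cntnap5b*, whose product belongs to the neurexin superfamily. A cluster of 797 bp there (chr1:100231108-100231904, minus strand) averaged 9.78 in wild-type tubules and 12.15 in those of *Ctcf*-cKO mice, the largest positive difference of all members (2.37) and the highest *Ctcf*-cKO average, while *Cntnap5b* went from 8.10 to 6.86. Higher members inside a lower gene were also found in *Wdr96* (1.12) and *Fam118b* (1.10), with smaller differences, and were named after their values had been seen.

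Embedded pairs in which both sides were lower included some of the largest differences. *Gm14526* in *Fbxw10* averaged 8.35 in wild-type tubules and 6.23 in those of *Ctcf*-cKO mice (-2.12), and *Fbxw10* averaged 10.73 and 9.09. *4930533B01Rik* in *Fmn1*, which encodes the actin nucleator formin 1, averaged 8.57 and 6.60 (-1.97) beside 8.05 and 6.74. *Gm21283* in *Hydin*, a gene of the central apparatus of cilia and flagella, averaged 8.26 and 6.80 beside 9.98 and 8.31.

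In 13 embedded pairs both sides were higher. Inside *Scd1*, a stearoyl-CoA desaturase, a cluster of 604 bp that the table also labels with the symbol *Scd1* averaged 6.21 in wild-type tubules and 8.03 in those of *Ctcf*-cKO mice on the strand opposite the gene, which averaged 8.31 and 10.90. The cluster in *Wipf3* (6.84 and 8.64) and the gene (8.21 and 10.02) had close differences, 1.80 and 1.81, and the reference annotation has *Scrn1* on the cluster's own strand there. Other such pairs, named after their values had been seen, were those of *Aldh2* (1.29 for the member and 1.94 for the gene), *Tgm2* (1.27 and 1.67), *Cst3* (1.12 and 1.17), *Ftl1* (1.02 and 1.82) and *Tmsb4x* (a member at 5.80 and 7.20, the gene at 7.80 and 8.84). In all 26 pairs that were higher together, over every arrangement, the partner had the larger difference in 17 and the member in 9, with medians of 1.54 and 1.23.

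Tail-to-tail overlaps, in which only the 3′ parts of the spans overlap, numbered 15. Of these, 7 pairs were lower together, 4 higher together, 3 had a lower member with a higher partner and 1 the reverse. A cluster of 965 bp at the end of *Sparc*, which encodes a secreted matrix glycoprotein, averaged 7.83 in wild-type tubules and 9.43 in those of *Ctcf*-cKO mice beside 10.53 and 12.02 for *Sparc*. *Tex14*, needed for the intercellular bridges between germ cells, averaged 9.19 and 8.13, and the cluster over its 3′ part 8.24 and 6.99. *Kcnmb4os1* averaged 9.92 and 8.55, and *Kcnmb4*, a potassium channel subunit, 8.21 and 7.10. *Scd2*, *Glul* and *Adipor1* were the partners of the other members that were higher with their gene, at 1.39, 1.33 and 1.08, and were named after their values had been seen. The median-subtracted values of this class split 8 lower to 7 higher members, and the share of pairs moving the same way was 46.7%, in place of 73.3%.

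In 19 pairs the non-coding span enclosed the coding one, with a median span of 60233 bp. Of these, 18 members were lower, 16 of them with a lower partner, so that 89.5% of the pairs moved the same way. After the median was subtracted 15 members were lower, but only 8 pairs were lower together and the share moving the same way was 47.4%. *St8sia3os* (7.28 and 5.83) encloses *St8sia3*, a sialyltransferase gene (9.32 and 8.01). Around *Mif*, a cytokine gene, the enclosing cluster and the gene had differences of equal size and opposite sign, -1.48 and 1.48. The other opposite pair was *Gm14023* around *Il1a*, which encodes interleukin 1 alpha, at 7.05 and 5.65 with *Il1a* at 4.86 and 6.18. The single higher member of this class encloses *Tuba1a*, an alpha-tubulin gene, at 8.21 and 9.35. It overlaps on its own strand the higher member inside the neighbouring *Tuba1b* (9.79 and 10.91), so these may share a transcript.

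Convergent pairs, whose 3′ ends face each other without overlap, were the fewest, 9, and 5 of them moved the same way. They held 2 of the largest positive differences. A cluster 48 bp beyond the end of *Ppfia2*, a liprin gene, had a wild-type average of 5.84 and a difference of 2.16, while the gene went from 6.50 to 5.35. A cluster 4536 bp from *Kcnu1*, which encodes the sperm potassium channel, averaged 6.95 and 8.80 while *Kcnu1* went from 9.86 to 8.14. *Gm14146* was the reverse, at 9.89 and 8.12 with *Gm14150* at 10.76 and 11.85, and the reference places *4921509C19Rik* over *Gm14146* on its own strand. With the median of all rows subtracted, 5 of the 9 convergent members were lower and 33.3% of the pairs moved the same way, in place of 55.6%.

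Averages of different clusters come from different probes, so their order is one of signal and not of RNA amount. The members with the highest wild-type averages belong to repeated copies of a gene family whose partners the table describes by the domain DUF622. There were 16 such members on chromosomes 5 and 14, all lower together with their partners, with a median difference of -1.57, and after the median of all rows was subtracted 15 of the 16 were lower and 12 pairs were lower together. *4930558F17Rik* is listed at chr5:11109800-11126455 beside *Gm8879* and again at chr5:11664167-11680823 beside *Gm8922*, with the same averages of 11.24 and 9.57 at both places. The cluster beside *Gm8906* averaged 10.80 and 9.02. On chromosome 14 *Gm26630* averaged 11.12 and 9.68 around *Gm16440*, *Gm17188* averaged 11.09 and 9.66 around *Gm10413*, and *Gm20213* averaged 10.88 and 9.34 around *Gm8050*. Copies this alike may share probes, so their values are uncertain as separate measurements. Without these members 176 were lower, 34 were higher and 81% of pairs moved the same way.

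Some partners had more than 1 member. There were 10 such partners with 22 members, and *Gm3893* had the most, with 4, at differences of -1.63, -1.28, -1.22 and -1.15 beside -1.37 for *Gm3893*. The member with -1.15 is *Gm2172*, over which the reference annotation places the protein-coding gene *Gm13305* on its own strand. The cluster of 265 bp with -1.63 repeats the averages of the cluster in *Gm13306* (9.39 and 7.76). *St3gal4*, a sialyltransferase gene at 7.74 and 9.46, had members that disagreed, since the embedded cluster went from 6.25 to 7.56 and *4930581F22Rik* at its 5′ end went from 8.54 to 7.41. In all, 6 members shared both averages with another member, which left 223 distinct sets of values.

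The table gives the term spermatogenesis to 12 partners, of which 11 were lower (7 with the median of all rows subtracted), and all 12 moved with their member, whereas of the 159 coding rows with that term 137 were lower. Of the 7 partners with the term cell adhesion, 5 were higher, as were 58 of the 70 coding rows with that term, and 3 moved with their member. Of all 4102 coding rows 62.1% were lower and 37.9% higher, and of the 214 partners 74.8% were lower. The counts that follow were not tested against these shares. List genes and markers were matched by symbol only, so a gene that the table holds under an older symbol counts as without a row. By the lists of germ-cell genes, 17 of 32 genes of meiosis and recombination have a row, and 17 were lower (12 after the median of all rows was subtracted), with *Tex14* as a partner of a member. Of 18 piRNA and RNA granule genes 12 have a row, all lower (10 on the subtracted scale), with *Tdrd5* and *Pld6* as partners. For axoneme, cilium and flagellum it was 39 of 55 with 38 lower (34 when subtracted) and 1 higher, with *Dnah10* and *Hydin*. The genes *Cfap43* and *Cfap65* of this list, counted as without a row, are the partners *Wdr96* (-1.66) and *Ccdc108* (-1.24) under older symbols. For spermiogenesis it was 13 of 21, all lower (6 when subtracted), with *Acr* and *Hook1*. Steroidogenesis had 9 of 15 with a row, all higher, the known non-coding RNAs 3 of 28, all higher, and the CTCF, cohesin and loop genes 1 of 12, the higher *Smc1a*, and none of these was a partner. All 8 partners matched by symbol to the germ-cell lists and markers were lower, as were their members. With the median subtracted it was 5 of these partners and 7 of the members. Of the pairs under older symbols, *Ccdc108* had a lower member (-1.19) and *Wdr96* a higher one (1.12).

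The germ-cell markers of meiotic and later stages that have a row were lower in *Ctcf*-cKO, and the somatic markers that have a row were higher. With the median of all rows subtracted, 4 of 7 spermatocyte, 5 of 7 round spermatid and 0 of 3 elongating spermatid markers stayed lower. Markers without a row did not pass the filter or stand in the table under another symbol. Of the elongating spermatid markers 8 have no row, among them *Prm1* and *Prm2*, which the study did not find to be down-regulated. Of 8 markers of primary spermatocytes 7 have a row and all were lower, with a mean of 9.14 over the authors' wild-type averages and of 7.88 over those of *Ctcf*-cKO, *Sycp2* being the brightest in wild-type (10.68). For round spermatids 7 of 8 have a row, all lower (10.43 and 9.15), the brightest being *Pgk2* (12.00), and for elongating spermatids 3 of 11 have a row, all lower (11.11 and 10.08), with *Spem1* (12.45) the brightest. *Acrv1* is both a round spermatid marker and a partner. On the somatic side all markers with a row were higher, 6 of 7 for Leydig cells (9.53 and 11.66, *Cyp17a1* brightest at 11.64), 8 of 10 for Sertoli cells (8.57 and 10.23, *Clu* at 11.03), 3 of 5 for peritubular myoid cells (8.28 and 9.47, *Acta2* at 9.67), 5 of 9 for macrophages (7.17 and 8.82, *Mrc1* at 8.41) and 2 of 6 for endothelial cells (6.55 and 7.68, *Cdh5* at 7.21). Of the 8 spermatogonial markers only *Kit* has a row (7.81 and 10.09).

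The partners from the somatic lists were *Wt1*, a transcription factor of Sertoli cells, and *Cdh5*. The cluster of 260 bp that lies 4477 bp upstream of *Wt1* averaged 4.51 in wild-type tubules and 5.76 in those of *Ctcf*-cKO mice, and *Wt1* averaged 8.43 and 10.02. In bulk tissue, fewer cells of a type and less RNA per cell cannot be told apart, and the part of the cell mixture in the members' differences was not tested.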

How the data were processed

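An array was used for each of 4 *Ctcf*-cKO mice and 3 wild-type mice. Per the labels, the authors processed the arrays with Affymetrix Expression Console 1.4.1, RMA and Transcriptome Analysis Console 3.0 on the build mm10. The authors' deposited table gives bi-weight averages of the log2 signal per genotype, with decimal commas that were read as points, and the number of probes per cluster. Its columns of linear fold change, p of an analysis of variance and p adjusted for multiple testing, from the authors' own comparison, were not used. Because values of single arrays were not given, limma, planned for such values, was not run.

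Differences, pairs and arrangements were computed with python 3.11.15, numpy 2.4.6, pandas 2.3.3 and scipy 1.17.1, and the pairing was tested on simulated data. A pair was a member with its nearest opposite-strand coding row, or the one with the longest overlap. Named were the 6 members with the largest difference in each direction, the 10 opposite pairs with the widest gap between differences, the 8 divergent pairs with 5′ ends at most 1 kb apart and the largest member difference, the 5 members with the highest wild-type average, members with symbols ending in os or as, those with a partner in a gene list, and 3 partners with the most members, rows of equal values counting once. Only *Gm3893* led in members, and *Etv6* and *St3gal4* were taken by table order from 9 partners with 2 each. Any other name was chosen with its values known. The members and lists were chosen with earlier results of these data known, and the genes of the lists were matched by symbol only.

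Of the 96 members with a symbol, 65 matched RefSeq (63 as lncRNA), as did 195 of 214 partners, and 194 of these overlapped the gene of that name. RefSeq strands were known for 79.9% of protein-coding genes, from the promoter table, so same-strand genes can be missed. A genome sequence was not used here.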

Additional observations from a re-analysis of the deposited data

How the results depend on the processing

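The alternatives gave 62 values in 14 settings, of which 49 kept within 1.5 times the main count, within the 95% Wilson interval of the share of pairs (76.8% to 86.7%) or within the 95% order-statistic interval of a median difference (-1.37 to -1.25 for lower and 1.12 to 1.31 for higher members). These intervals treat members as independent, which they are not. The share of pairs moving the same way kept within its interval in 12 settings, from 77.1% to 84.5%.

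With overlapping pairs only, 116 members were lower. With partners of the class Coding alone, 97 were lower, 10 were higher and the share was 87.9%. With a linear fold of at least 3 for the member, 38 were lower and 6 higher, with median differences of -1.71 and 1.83, and with an average of at least 7 in either genotype the lower median was -1.38. These settings leave fewer members by construction. Subtracting the median of all rows from each difference gave 78 higher members, a share of 60.2% and medians of -0.25 for lower and 0.12 for higher members. It moves every row by the same amount, and each row had been selected for its fold. Chosen after seeing the data were the settings without partners of the DUF622 family and with 1 member for each partner.

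No paired analysis was possible because the values are averages over the mice of a genotype. Leaving out each mouse, the mouse number as a block and centring each array on its median were not run, likewise. The array's background probes were not analysed here, so signal over background is unknown, and 10 members were under 6 in both genotypes.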
